A study of Arabidopsis thaliana with 6 samples.

Results

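The genes described here are WSD1 (AT5G37300), a wax ester synthase gene, and AT5G33370 and AT2G42990, genes of the GDSL lipase family, measured in whole Arabidopsis thaliana seedlings. Each was read by 1 probe set, so the 3 genes account for 3 of the 22746 probe sets on the array that are not array controls. They were chosen from earlier results on these same arrays. WSD1 held place 9 of 273 when the named genes that rose after prolonged induction were ordered by their fold change. Only genes with an adjusted p under 0.05 in limma and with both induced arrays above both controls were ordered. Among genes that rose after temporal induction by the same rule, AT2G42990 and AT5G33370 held places 5 and 9 of 114. The rise of WSD1 after prolonged induction and those of the lipase genes after temporal induction are therefore given as descriptions without a test.

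Aerial plant surfaces are sealed by the cuticle, a layer made of the polyester cutin and of waxes. Wax is built from very-long-chain fatty acids, which are turned into alkanes in one branch and into primary alcohols and wax esters in another. WSD1 catalyses the last step of the ester branch in stem wax, the joining of an alcohol to an acyl chain. GDSL lipases are a large family of secreted hydrolases and acyltransferases, and a member from tomato links cutin monomers into the polymer.

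The study asked how nuclear genes respond when chloroplast division is inhibited, with 3 groups of 2 Affymetrix ATH1 arrays and seedlings harvested at 14 days with 4 rosette leaves under constant light. Control seedlings carried only the empty vector PER-10, were of Ler-0 background and were sprayed once with 2 µM 17-B-estradiol, the inducer, at 13 days, 24 h before harvest. Temporal induction seedlings, of Ler-1 background, had the same single spray at the same age. Prolonged induction seedlings, also Ler-1, germinated on plates with 2 µM inducer and were sprayed every 24 h. The labels give a T-DNA for all 3 groups, write 7-B-estradiol for both induced groups, and name neither the inhibiting transgene nor the number of lines. Induced-line seedlings without inducer were not analysed here. Line, background (Ler-0 or Ler-1) and induction thus cannot be told apart in any comparison with the controls. Nothing in the labels says that the 2 arrays of a group came from separate cultures, so p-values reflect variation among these arrays that could be purely technical.

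Signals are array units on a linear scale, and all arrays had been brought to the same trimmed mean of 100.01. Median signals were 53.1 to 58.8. The ratio of 3' to 5' probe sets, a sign of RNA integrity, overlapped between the groups for ubiquitin, at 1.58 to 1.87 over the 6 arrays. For GAPDH both temporal arrays (2.43 and 2.48) lay above both controls (1.82 and 2.38), and for actin both prolonged arrays (6.14 and 4.45) did so (control 4.19 on each array), and the part of RNA quality in the results was not tested. The leaf antenna gene LHCB4.1 read 4131 to 5548 and PYK10, a β-glucosidase gene abundant in root, 2618 to 4660, so both leaf and root RNA were present, as the label of whole plant says. The summed signal of the 3 measured leaf antenna genes was 6857 and 6692 on the control arrays, 5484 and 5145 on the prolonged and 6534 and 5951 on the temporal arrays, lower in all 4 induced arrays than in both controls. Within it LHCB4.3 read 614 and 552 in control and 281 to 323 in the induced arrays, while LHCB4.2 read 695 and 675 in control and 698 to 965. The part of these leaf signals in the results below was not tested. With so few arrays, their number sets the precision.

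WSD1 read 23.6 and 3.11 on the control arrays, 93.7 and 80.9 on the prolonged and 70.3 and 68.1 on the temporal arrays. All 4 induced arrays lay above both controls, and the lowest of them was 2.89 times the higher control array. The prolonged arrays both lay above the temporal arrays, so the order of the groups was prolonged, temporal, control. Group means were 13.3 ± 14.5 in control, 87.3 ± 8.999 in prolonged and 69.2 ± 1.57 in temporal induction (SD, n = 2 arrays each). The 2 control arrays differed 7.58-fold from each other, whereas the arrays of the induced pairs differed by 1.16-fold and 1.03-fold. On the log2 scale, the difference from control was 3.35 ± 0.81 after prolonged induction (SE of the limma fit), the value for which the gene was chosen. Across the 4 pairings of a prolonged with a control array it ran from 1.78 to 4.91, and in the fit it was 4.81 without control replicate 1 and 1.88 without control replicate 2.

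AT5G33370 had the smallest standard error of the 3 genes, 0.22. It read 61.8 and 42.5 on the control arrays, 385 and 445 on the prolonged and 373 and 328 on the temporal arrays. The lowest induced array was 5.30 times the higher control array, and the prolonged arrays lay above the temporal ones. Group means were 52.2 ± 13.6, 415 ± 42.4 and 351 ± 32.1 (SD, n = 2 arrays each). Paired arrays differed by at most 1.45-fold, in the control group. The log2 difference from control was 2.77 ± 0.22 after temporal induction, the comparison in which the gene was chosen, and the pairings of single arrays gave 2.41 to 3.13.

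AT2G42990 read 18.6 and 4.22 on the control arrays, 82.6 and 74.0 on the prolonged and 76.1 and 84.4 on the temporal arrays. All 4 induced arrays again lay above both controls, the lowest by 3.98 times, but the prolonged and temporal arrays overlapped. Group means were 11.4 ± 10.1, 78.3 ± 6.11 and 80.3 ± 5.85 (SD, n = 2 arrays each). The control arrays differed 4.40-fold, and in each induced group the pair differed by 1.12-fold or 1.11-fold. The log2 difference from control after temporal induction, for which the gene was chosen, was 3.18 ± 0.68, with single pairings from 2.04 to 4.32. In the fit it was 4.25 without control replicate 1 and 2.11 without control replicate 2.

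**Figure D1:**
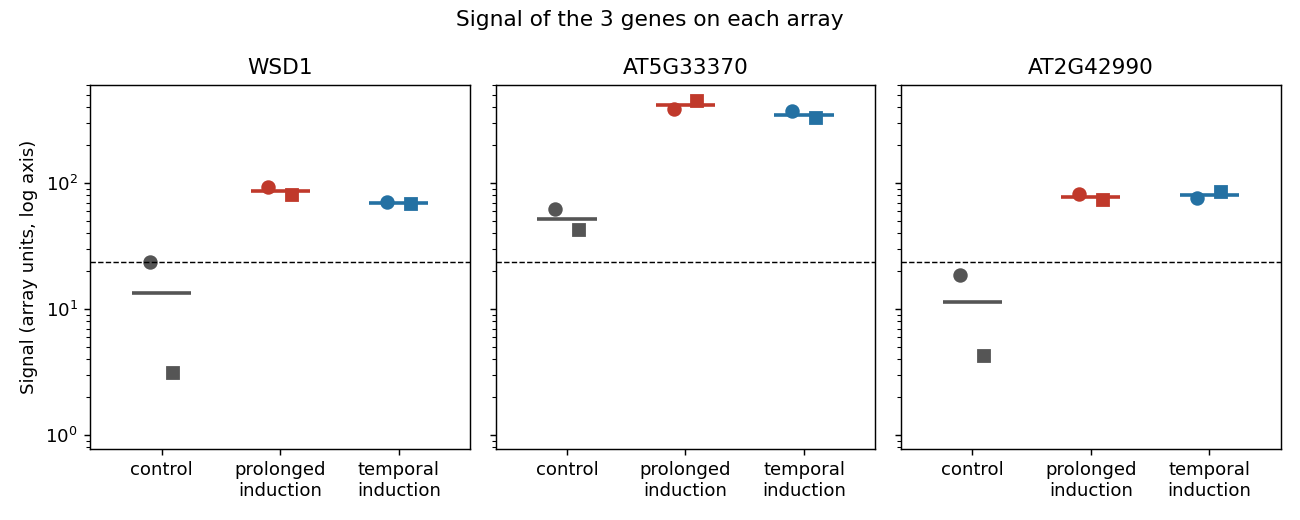
Signal of WSD1, AT5G33370 and AT2G42990 on each of the 6 arrays, in array units on a log axis; circles are replicate 1, squares replicate 2 and horizontal bars the mean of the group. The dashed line is the lowest geometric mean signal among tested probe sets, 23.5, and both control arrays of AT2G42990 and 1 of WSD1 lie below it.

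Control replicate 2 gave the lower control signal for all 3 genes, 3.11 for WSD1, 42.5 for AT5G33370 and 4.22 for AT2G42990. Over all 15922 tested probe sets this array was the lower of the pair for 49.8%, and lower by over 4-fold for 1.36%, as against 1.77% for which replicate 1 was lower by over 4-fold. The 3 genes passed a filter that removed the 30% of probe sets that were dimmest by mean log2 signal, below 23.5. WSD1 and AT2G42990, with geometric means of 8.56 and 8.85 in control, passed it only through their induced arrays. The control geometric mean of AT5G33370 was 51.3. Fold changes of WSD1 and AT2G42990 rest on control signals as dim as those of removed probe sets, and their size is not exact. When signals under 23.5 were raised to that level, a setting added after the data were seen, the log2 difference of WSD1 after prolonged induction was 1.89 and that of AT2G42990 after temporal induction 1.77.

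The remaining comparisons were not the ones used to choose each gene, but they share arrays with them, so they are not independent. Prolonged induction was set against control for the lipase genes. AT5G33370 rose by 3.01 ± 0.22 on the log2 scale (95% interval 2.53 to 3.50; adjusted p = 3.21e-05 over all tested probe sets in limma), in both prolonged arrays. It passed under all 16 alternative settings, with adjusted p from 6.32e-06 to 0.0395. For AT2G42990 the log2 difference was 3.14 ± 0.68 (1.65 to 4.63; adjusted p = 0.0186). It had entered the test only through its induced arrays, so it had to be higher there, and this p is given as a description. Under the alternatives the adjusted p ran from 0.00104 to 0.140. It was above 0.05 without prolonged replicate 1 (0.136), without prolonged replicate 2 (0.0992) and without temporal replicate 2 (0.0506), an array that enters only the estimate of the spread. It was so too without an intensity trend in the variance (0.140) and in a fit of the 2 groups alone (0.0757). With an offset added before the logarithm the log2 difference was 1.46, and with low signals raised 1.73. Its log2 difference was 4.21 without control replicate 1 and 2.07 without control replicate 2. Of all tested probe sets, 6.95% passed in this comparison and 3.77% passed as rises.

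Temporal induction was set against control for WSD1. Like AT2G42990, WSD1 had entered the test only through its induced arrays, so it had to be higher there. Its p-values here are given as a description. Its log2 difference was 3.02 ± 0.81 (95% interval 1.24 to 4.79) and did not pass (adjusted p = 0.0873 in limma; unadjusted p = 0.00328), although both temporal arrays lay above both controls. Under the alternatives the adjusted p ran from 0.00201 to 0.365. It passed without control replicate 1 (log2 difference 4.48), with an offset added before the logarithm (1.29) and with low signals raised (1.56). Without control replicate 2, the array that read 3.11, the log2 difference was 1.55. In this comparison 2.42% of tested probe sets passed, and 1.70% passed as rises.

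The 2 inductions were compared directly to set the long exposure to inducer beside the short one. No difference passed for any of the 3 genes in limma (adjusted p = 1.00 for WSD1, 0.965 for AT5G33370 and 1.00 for AT2G42990), and none had an unadjusted p under 0.05, the values being 0.689, 0.294 and 0.958. Prolonged minus temporal, the log2 difference was 0.33 for WSD1 (95% interval −1.44 to 2.11), 0.24 for AT5G33370 (−0.24 to 0.73) and −0.04 for AT2G42990 (−1.53 to 1.45). The interval was narrow only for AT5G33370, for which a difference over 0.73 either way lay outside it. For the other 2 genes, differences of over 1 log2 unit in both directions lay within the interval. Of all tested probe sets 0.0879% passed here.

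All 4 induced arrays lay above both controls for 14.9% of the tested probe sets, and for each of the 3 genes, which had been chosen as risers. Both prolonged arrays lay above both temporal arrays for 16.8% of probe sets, and among the 3 genes for WSD1 and AT5G33370.

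Other genes of the cuticle were then read from lists of wax, cutin and suberin genes. The 7 lists name 113 distinct genes, of which 15 had a probe set with a single gene name in the table used here, and 12 of these were tested, WSD1 and AT5G33370 among them. Of the other 10, 1 passed as a rise and 0 as a fall after prolonged induction in limma (background 6.95%), 0 passed after temporal induction (background 2.42%) and 0 between the inductions (background 0.0879%). At an unadjusted p under 0.05 there were 2, 3 and 0 of the 10, where 20.0%, 14.7% and 5.90% of all tested probe sets had such a p. Their median log2 difference was 0.04 after prolonged and 0.14 after temporal induction, beside −0.02 and −0.002 for all tested probe sets.

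The gene that passed was AT5G61590, annotated as DEWAX (Decrease Wax Biosynthesis), an ERF-type transcription factor that represses wax synthesis genes. It read 348 and 343 on the control arrays, 609 and 570 on the prolonged and 466 and 538 on the temporal arrays. All 4 induced arrays lay above both controls, and both prolonged arrays above both temporal arrays. It rose by 0.77 ± 0.14 on the log2 scale after prolonged induction (adjusted p = 0.00899 in limma) and did not pass after temporal induction (0.53 ± 0.14, adjusted p = 0.0898). After prolonged induction it did not pass without prolonged replicate 1 (0.0519) or without an intensity trend in the variance (0.171). In the same list, SHN3 (AT5G25390), an ERF-type activator of cuticle genes, read 47.3 and 23.6 on the control arrays, 49.2 and 18.1 on the prolonged and 15.3 and 14.4 on the temporal arrays. Its temporal arrays lay below both controls, but no difference passed (adjusted p = 0.572 in limma). AT1G55270, the third regulator tested, had log2 differences of 0.40 ± 0.30 and 0.17 ± 0.30 after prolonged and temporal induction.

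In the list for wax chain elongation, 3 of 31 genes were tested and 0 passed in any comparison. AT4G13840, annotated as CER26 (ECERIFERUM 26), which acts in the elongation of wax precursors, read 123 and 126 on the control arrays, 85.7 and 60.2 on the prolonged and 45.5 and 90.9 on the temporal arrays. Both induced groups lay below both controls without passing (log2 difference −0.79 ± 0.36 and −0.95 ± 0.36, adjusted p = 0.260 and 0.246 in limma). FATB (AT1G08510), the plastid thioesterase that releases the saturated fatty acids from which wax is made, read 260 and 265 on the control arrays, 335 and 323 on the prolonged and 300.3 and 271 on the temporal arrays. AT3G23840, annotated as CER26-LIKE, read 39.1 to 59.3 over the 6 arrays. Of 8 genes for the alkane branch, AT1G02190 alone had a named probe set, which read 7.02 to 27.0 and was left out as low.

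The list for the alcohol and ester branch, to which WSD1 belongs, held 19 genes, of which 5 were measured and 3 tested. Besides WSD1 these were AT3G49210, which read 36.4 to 66.4 over the 6 arrays, and AT5G12420, which read 54.4 to 73.2. Neither passed, with log2 differences of −0.09 for both after prolonged induction and of 0.16 and 0.24 after temporal induction, each with an SE of 0.34 or 0.43. AT3G49190 read 9.67 and 7.45 on the control arrays, 30.1 and 10.4 on the prolonged and 21.9 and 20.9 on the temporal arrays, too low to be tested. AT1G72110 was left out as low too, at 2.92 to 32.1. Fatty alcohols, one of the substrates of WSD1, are made by fatty acyl reductases, and no gene of that family had a named probe set here.

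For cutin synthesis, 2 of 17 genes were tested, AT5G33370 and AT4G24140. AT4G24140 read 25.1 and 56.0 on the control arrays, 38.7 and 58.5 on the prolonged and 54.7 and 58.7 on the temporal arrays, and did not pass (log2 difference 0.35 ± 0.50 and 0.60 ± 0.50). None of 9 listed genes for export of cuticle lipids had a named probe set. Nor did any of 9 further genes with the word GDSL in their annotated symbol or synonyms. That search did not find AT5G33370 or AT2G42990 either, so it did not cover the whole family. For suberin, the lipid polyester of root barriers, 1 of 12 was tested. FACT (AT5G63560), which joins fatty alcohols to caffeic acid, read 191 and 169 on the control arrays, 124 and 128 on the prolonged and 138 and 124 on the temporal arrays, without passing (log2 difference −0.51 ± 0.21 and −0.46 ± 0.21, adjusted p = 0.196 and 0.339 in limma).

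**Figure D2:**
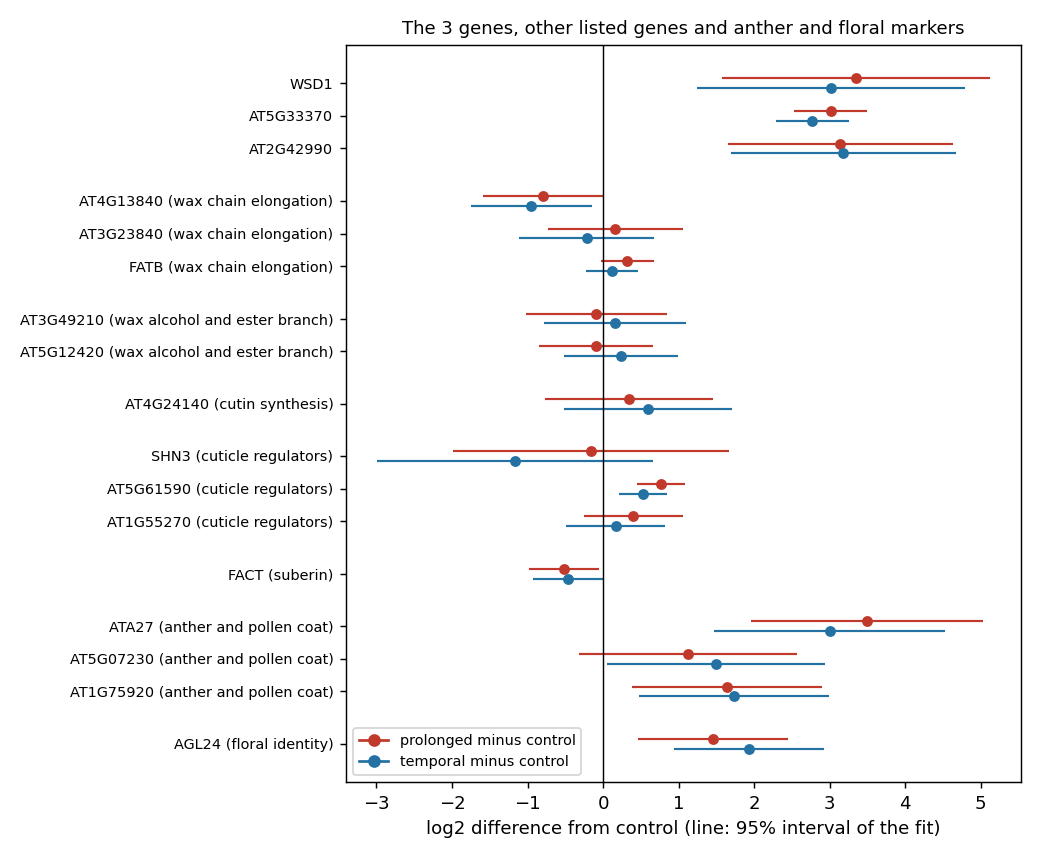
Log2 difference from control after prolonged (red) and temporal (blue) induction for WSD1, AT5G33370 and AT2G42990, 10 further genes of the wax, cutin and suberin lists, and 4 tested anther or floral markers; lines are 95% intervals of the fit. The 3 genes lie between 2.77 and 3.35, the 10 further genes between −1.17 and 0.77, and the 4 markers between 1.12 and 3.50. The 4 markers, like WSD1 and AT2G42990, had control geometric means under 23.5. They were tested only because of their induced arrays, so the filter fixed the direction of their differences. AMS, an anther marker left out as low, is not shown.

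Markers of anther and flower were read because wax and GDSL lipase genes are also active in flowers. Of 26 anther and pollen coat genes 4 were measured, and their summed signal was 54.4 and 86.3 on the control arrays, 180 and 262 on the prolonged and 216 and 203 on the temporal arrays. ATA27 (AT1G75940), an anther β-glucosidase gene, read 3.98 and 20.5 on the control arrays, 89.7 and 116 on the prolonged and 75.0 and 69.7 on the temporal arrays. Both its control signals were under 23.5, so it too was tested only because of its induced arrays and had to be higher there. Its fold change is not exact, and its p-values under every setting are given as descriptions. The log2 difference was 3.50 ± 0.70 after prolonged induction (adjusted p = 0.0126 in limma) and 3.00 ± 0.70 after temporal induction (adjusted p = 0.0504). With low signals raised these were 2.11 and 1.62, and with the offset 1.73 and 1.36. After prolonged induction it did not pass without prolonged replicate 1 (0.0854) or 2 (0.108) or without the intensity trend (0.139). After temporal induction it passed without control replicate 1 (log2 difference 1.82, adjusted p = 0.0491) or 2 (4.18, 0.00160), with the offset (0.0246) and with low signals raised (0.0362). AT1G75920 read 11.9 and 39.4 in control and 53.5 to 85.2 in the induced arrays, and AT5G07230 26.5 and 11.2 in control and 33.3 to 57.1 in the induced arrays. AT1G75920 passed without control replicate 2 only, after both inductions (0.0166 and 0.0251), and AT5G07230 did not pass. AMS (AT2G16910), a transcription factor needed for tapetum function, was low in all groups at 4.05 to 23.2 and was not tested.

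The single measured gene of 12 for floral identity was AGL24 (AT4G24540), a MADS-box flowering gene that is also active in vegetative tissue. It read 21.3 and 21.0 on the control arrays, 74.6 and 44.8 on the prolonged and 79.9 and 81.4 on the temporal arrays, without passing (adjusted p = 0.0860 and 0.0516 in limma). After temporal induction it passed with an offset added before the logarithm (0.0462) and with low signals raised (0.0364). Its control signals were both under 23.5, so AGL24 too was tested only because of its induced arrays, and these p-values are descriptions. Summed signals of both kinds of marker were thus higher in all 4 induced arrays than in both controls, as were the signals of the 3 genes, and their part in the results was not tested. In whole seedlings, more cells of a type and more RNA per cell cannot be told apart.

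Markers of the epidermis, the tissue that makes the cuticle, and of root were read too. The guard cell gene FMA (AT3G24140) read 113 and 70.1 on the control arrays, 101 and 116 on the prolonged and 87.6 and 97.2 on the temporal arrays. Both induced groups overlapped with control, and both prolonged arrays lay above both temporal arrays. SPCH (AT5G53210), of the stomatal lineage, was too low to be tested at 8.99 to 32.8. The other 6 of the 8 listed epidermis genes had no named probe set. The summed signal of 3 root markers was 4172 and 4813 on the control arrays, 3872 and 2679 on the prolonged and 3784 and 3698 on the temporal arrays. It was lower in all 4 induced arrays than in both controls. Most of this sum was PYK10, which alone read 4006 and 4660 on the control arrays. EXPA7 and EXPA18, expansin genes of root hairs, had log2 differences of −1.36 ± 0.42 and −1.93 ± 0.54 after prolonged induction, and PYK10 one of −0.45 ± 0.17. After temporal induction those of EXPA7, EXPA18 and PYK10 were −0.99 ± 0.42, −0.15 ± 0.54 and −0.25 ± 0.17. Of the 3 genes, 0 passed after either induction. EXPA18 and PYK10 passed after prolonged induction without prolonged replicate 1 (adjusted p = 0.0456 and 0.0257 in limma), and EXPA18 also with the offset (0.0485) and with low signals raised (0.0445).

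Over the 6 arrays, log2 signals of WSD1 and AT2G42990 had a Pearson r of 0.988, those of AT5G33370 and AT2G42990 0.954, and those of WSD1 and AT5G33370 0.919. These describe 6 arrays that share the gap between control and induced groups, for which all 3 genes were chosen. WSD1 and AT2G42990 also share very low signals on control replicate 2, 3.11 and 4.22. The part of that array in their r was not tested. Among 8875 other tested probe sets with 1 gene name, 2.73% had an r over 0.9 with WSD1, 3.65% with AT5G33370 and 3.00% with AT2G42990. The genes most like WSD1 were AT3G18295 (r = 0.997), AT2G03780 (0.994) and RXF26 (0.994). RXF26 read 32.4 and 4.39 on the control arrays, 99.5 and 107 on the prolonged and 65.1 and 82.5 on the temporal arrays. Most like AT5G33370 were AT1G51310 (0.997), AT3G27090 (0.997) and AT1G73820 (0.996), and AT1G51310 read 15.8 and 11.9 in control and 59.0 to 65.0 in the induced arrays. Most like AT2G42990 were AT1G32460 (0.996), AT1G79090 (0.994) and DPL1 (0.992). The size of change differed widely within these sets. AT1G79090, for instance, read 105 and 86.2 in control and 124 to 130 in the induced arrays.

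**Figure D3:**
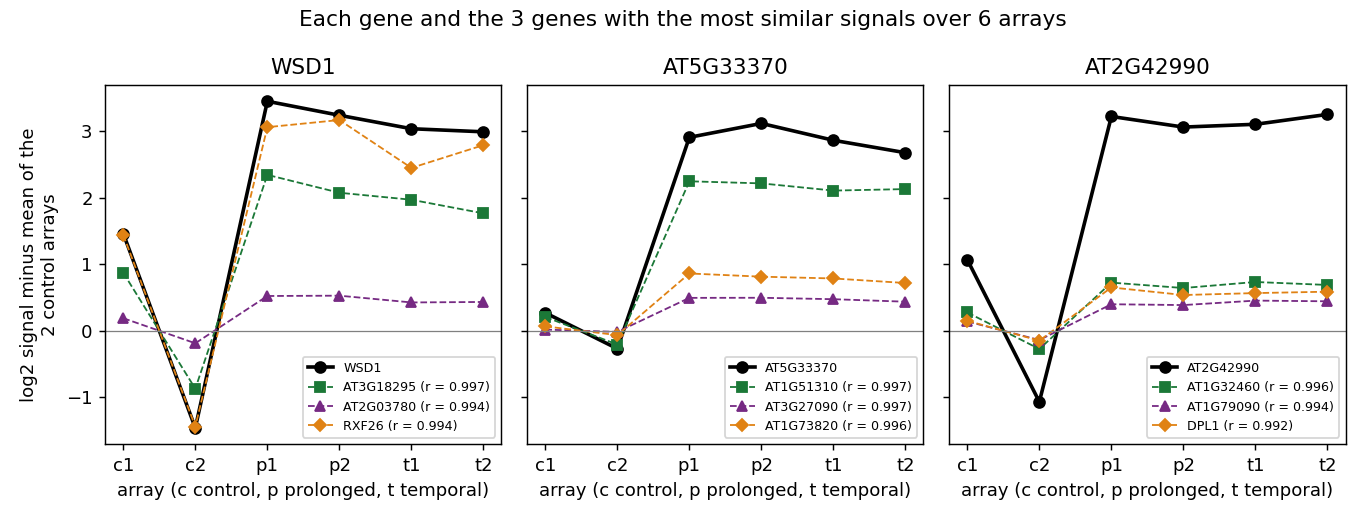
Log2 signal on each array minus the mean of the 2 control arrays, for each of the 3 genes (black) and the 3 named genes whose log2 signals correlate most with it over the 6 arrays (r in the key); lines only join the points of a gene. WSD1 and AT2G42990 have a wide gap between control arrays 1 and 2, and most of the similar genes change less than the gene they resemble.

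WSD1 and AT5G33370 lie on chromosome 5 and AT2G42990 on chromosome 2. The nearest genes with a named probe set were read on either side of each, with the order of genes taken from the TAIR10.1 annotation. Beside WSD1, AT5G37290 read 1.45 to 6.81 over the 6 arrays and was not tested, and AT5G37310 read 106 to 190. AT5G37310 had log2 differences of 0.43 ± 0.24 and 0.04 ± 0.24 after prolonged and temporal induction. Beside AT5G33370, AT5G33300 (−0.32 ± 0.79 and −1.14 ± 0.79) and AT5G33390 (−0.26 ± 0.34 and −0.17 ± 0.34) lay with 4 and 1 protein-coding genes in between. Beside AT2G42990, AT2G42980 read 3.17 to 12.8 and was not tested. On its other side AT2G43030, with 3 protein-coding genes in between, had −0.50 ± 0.15 and −0.31 ± 0.15. Of the 4 neighbours tested, 0 passed in limma after either induction, with adjusted p from 0.0747 to 0.968.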

How the data were processed

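The authors deposited linear signal intensities for each probe set. The submitters' processing notes name MAS5 and GCOS, with no version given. Labelling was one-cycle per the labels. The mean after trimming 2% from each end was 100.01 on every array, and detection calls were not used here. Of 22810 probe sets, 64 were array controls. Of the others 13513 had 1 gene symbol, of which 13436 matched the TAIR10.1 annotation, 503 had several and 8730 had none. A gene was named only from a probe set with 1 symbol, and where it had several, the one with the highest mean signal was used.

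Signals were taken to log2, the lowest 30% by mean were left out, and 15922 probe sets were fitted on all 6 arrays with limma 3.58.1 in R 4.3.3 (3 residual and 7.96 prior degrees of freedom, with an intensity-dependent variance prior). Passing means an adjusted p (Benjamini-Hochberg) under 0.05. An exact test of 2 arrays against 2 cannot give a two-sided p below 0.333. The genes and lists (163 distinct loci over 11 lists, with markers) were chosen with earlier results of these data known. Named were the 3 genes, list members that passed or up to 4 of the highest signal, measured markers, and the 3 genes with the highest correlation with each; neighbours, members left out as low and other measured genes were added after their values were seen. The fit was tested on simulated data with normal noise and known rises added to the prolonged arrays only. Simulated signals were centred on means that had passed the filter, so control signals as dim as those of WSD1 and AT2G42990 were not covered. Figures were drawn with matplotlib 3.10.9. Sequences were not used here.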

Additional observations from a re-analysis of the deposited data

How the results depend on the processing

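The results were recomputed under 10 other settings and with each of the 6 arrays left out in turn. WSD1 and AT2G42990 could not be tested when the lowest 50% were left out. With an offset of 27.7 added before the logarithm, the log2 difference of WSD1 after prolonged induction was 1.53 and after temporal induction 1.29 (adjusted p = 0.0404), and after temporal induction those of AT5G33370 and AT2G42990 were 2.25 and 1.49. With low signals raised to 23.5, chosen after seeing the data, they were 1.56 for WSD1 (adjusted p = 0.0442) and 1.77 for AT2G42990 after temporal induction. AT2G42990 after prolonged induction, at 3.14, did not pass without the intensity trend (0.140) or in a fit of only the 2 groups compared (0.0757), and after cyclic loess its difference between the inductions turned to 0.038. That of SHN3 after prolonged induction turned to 0.026 with low signals raised.

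Leaving out single arrays gave log2 differences after prolonged induction of 1.88 to 4.81 for WSD1, 2.74 to 3.28 for AT5G33370 and 2.07 to 4.21 for AT2G42990. After temporal induction they were 1.55 to 4.48, 2.50 to 3.04 and 2.11 to 4.25, and between the inductions 0.23 to 0.44, 0.14 to 0.35 and −0.12 to 0.043. The sign turned in some of these omissions for AT3G49210 (−0.52 to 0.34), AT5G12420 (−0.22 to 0.044), AT4G24140 (−0.23 to 0.93), SHN3 (−0.88 to 0.56), AT1G55270 (−0.00021 to 0.81) and FMA (−0.062 to 0.63) after prolonged induction, and for AT1G55270 (−0.066 to 0.40) and FMA (−0.29 to 0.40) after temporal induction.

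Without the intensity trend 47, 0 and 0 probe sets passed in the comparisons of prolonged induction with control, temporal induction with control and the inductions, where 1107, 386 and 14 did in the fit reported. At an unadjusted p under 0.05 there were 2659, 1874 and 812 without the trend. Median centring gave 249 for temporal induction, and for the inductions a fit of the 2 groups gave 24 and raised low signals 22. Omissions of an array gave 633 to 897, 56 to 366 and 1 to 18. Of the other wax, cutin and suberin genes, 1 or 0 passed after prolonged induction, the gene being AT5G61590, which did not pass without the intensity trend (0 passed) or without prolonged replicate 1.

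With the replicate number as a block, 1046 probe sets passed for prolonged induction. Same-numbered arrays did not deviate together (r of −0.06 to 0.01 between groups). This cannot tell whether they shared a culture or a harvest. The block changed no call of the 3 genes, while ATA27 passed after temporal induction with it (0.0332).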
